A study of Mus musculus with 22 samples.

Results

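The genes described here drive or mark cell division: a list of 47 cell cycle and DNA replication genes, listed by symbol for their known roles, with no measured value in the rule. Of the 47, 46 were found among the 15448 genes of the count table by their Ensembl identifiers in GRCm38, and Cdc6 was not analysed here. A filter on low counts kept 45 of them among 14785 genes tested, and the member it removed was Fen1. They were read in 4 classes: the replication machinery (20 genes in the table), nucleotide supply and S phase chromatin (7 genes), G1 and S cyclins, kinases and E2f1 (8 genes), and G2 and mitosis (11 genes).

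The series measured polyA RNA of liver by sequencing in 22 male wild-type CD2F1 mice, 1 library per mouse. Each of the 8 C26-TDCA mice carried transplanted C26 tumour cells, a line derived from a mouse colon carcinoma, and was given 10 mg/kg of taurodeoxycholic acid (TDCA), a taurine-conjugated secondary bile acid, by intraperitoneal injection each day. The 8 C26 mice carried C26 cells without TDCA, and the 6 CT mice were sham-injected and labelled as vehicle-treated. No mice without a tumour received TDCA in these groups, so TDCA was compared only within tumour bearers.

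A cell that divides loads the Mcm2-7 helicase onto DNA in G1 with the help of Cdt1, is driven into S phase by D and E cyclins with Cdk4 and Cdk2, which release E2F factors from the retinoblastoma proteins, and copies its DNA with polymerases, the Pcna clamp and its loader, replication factor C. Ribonucleotide reductase, thymidine kinase and thymidylate synthase supply the nucleotides, and cyclins A and B with Cdk1 and the mitotic kinases then drive division. Adult hepatocytes are mostly quiescent and often polyploid, and can re-enter the cycle after injury or loss of tissue.

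Depth ranged from 16511100 to 28264450 counts per library, and no pair of libraries was alike enough to be one library deposited more than once. Levels are given as CPM (counts after every library is scaled to the same total) with TMM scaling, which corrects for differences in library composition. The median biological coefficient of variation over all genes was 15.1%. All 11 hepatocyte markers examined were in the table, with a summed level of 43470.4 to 54789 CPM in C26-TDCA, 40381 to 53073 CPM in C26 and 69316 to 79225 CPM in CT libraries. In whole liver, fewer cells of a type and less RNA per cell cannot be told apart.

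In tumour-bearing livers, cell cycle transcripts moved in both directions. In C26 against CT livers, 9 of the 45 tested members were higher (20%) and 14 were lower (31.1%) by edgeR's quasi-likelihood test at an adjusted p under 0.05, while 28.9% of all tested genes were higher and 29.2% were lower. These shares lie near those of all genes or below them, so the totals are no result about the list. The median log2 fold change of the members was -0.02, beside -0.00 for all tested genes. By class, 9 of 19 tested genes of the replication machinery lay above 0, among them all 6 Mcm2-7 genes, and 10 lay below 0. Above 0 were also 1 of 7 genes of nucleotide supply and S phase chromatin, and 2 of 8 G1 and S regulators. In G2 and mitosis, 10 of 11 genes lay above 0. With the 2 most divergent libraries, C26-TDCA 03 and C26 02, both left out, a choice made after seeing the data, 8 members were higher and 16 were lower.

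**Figure D1:**
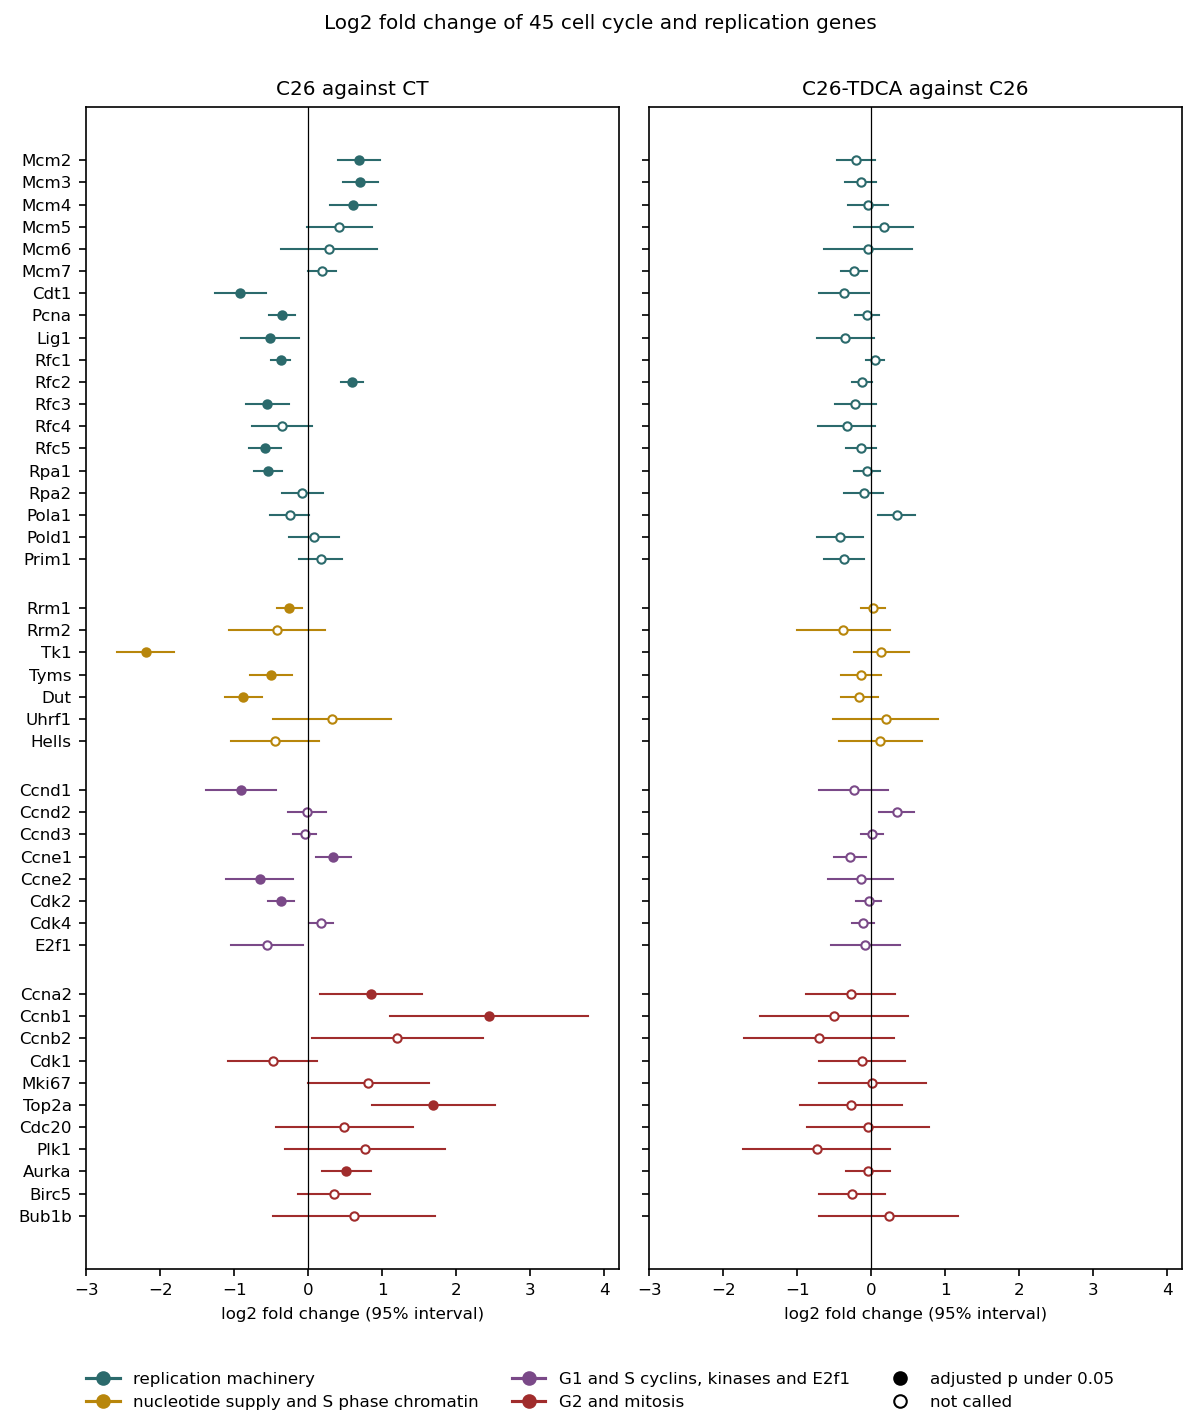
Log2 fold change (x axis) of the 45 tested members with 95% intervals from the edgeR fit, coloured by class, for C26 against CT (left) and C26-TDCA against C26 (right); filled points have an adjusted p under 0.05. On the left 9 members are filled to the right of 0 and 14 to the left of it, and on the right no point is filled.

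The 6 subunits of the Mcm2-7 helicase, which unwinds DNA at the fork, were all above 0 in C26 against CT livers, with a median log2 fold change of 0.51, and 3 of them passed the test. Mcm3 lay at 5.43 to 8.07 CPM (median 6.85) in C26 livers and at 2.94 to 5.33 CPM (median 4.16) in CT livers. Every C26 library was thus above every CT library, a separation seen upwards in 14.2% of all tested genes and in 2 members, Mcm3 and Rfc2. Its log2 fold change was 0.70 ± 0.12 (SE), with an edgeR adjusted p of 2.14e-05. Mcm2 rose by 0.68 ± 0.15 and Mcm4 by 0.60 ± 0.16 on the log2 scale, both with overlapping groups. Mcm5, Mcm6 and Mcm7 were not called, with log2 fold changes of 0.42, 0.28 and 0.19. All 6 fold changes kept their sign under every alternative run.

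Cdt1, the factor that loads this helicase onto origins, went the other way. Its level was 1.79 to 3.28 CPM (median 2.30) in C26 livers and 3.95 to 5.86 CPM (median 4.56) in CT livers, so the groups did not overlap. The log2 fold change was -0.92 ± 0.18, with an edgeR adjusted p of 7.85e-05. Downwards, 5 members were separated in this way (Cdt1, Rfc1, Rfc3, Tk1 and Dut), beside 15.3% of all tested genes. In the annotation, Cdt1 lies within the span of a longer readthrough gene on the same strand, Gm20388, with which it shares no annotated exon bases.

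The promoters of Mcm3 and Cdt1 are shown because the helicase subunit rose and its loader fell while both windows hold E2F-like letters. They are RefSeq windows on GRCm38.p6, from 250 bases before to 50 bases after the annotated start, written in the direction of the gene. Capitals mark E2F-like letters and CCAAT letters, on either strand. An E2F-like match was TTCCCGC or its variant TTCGCGC, and TTGCCGC as well as TTGGCGC also counted. The Mcm3 window is chr1:20820263-20820562, minus strand, and holds 3 E2F-like matches, which begin 19, 39 and 42 bases after the start, the last 2 overlapping, and 3 CCAAT boxes, 117, 72 and 32 bases before it. The Cdt1 window is chr8:122567765-122568064, plus strand, and holds 2 E2F-like matches, 18 and 33 bases after the start, and no CCAAT box.
Mcm3: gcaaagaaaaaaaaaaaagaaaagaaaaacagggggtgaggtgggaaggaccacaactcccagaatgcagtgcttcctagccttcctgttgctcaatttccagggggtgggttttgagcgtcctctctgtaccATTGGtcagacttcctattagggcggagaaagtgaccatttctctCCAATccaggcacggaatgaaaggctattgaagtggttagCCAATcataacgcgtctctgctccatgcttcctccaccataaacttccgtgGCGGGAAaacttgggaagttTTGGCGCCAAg
Cdt1: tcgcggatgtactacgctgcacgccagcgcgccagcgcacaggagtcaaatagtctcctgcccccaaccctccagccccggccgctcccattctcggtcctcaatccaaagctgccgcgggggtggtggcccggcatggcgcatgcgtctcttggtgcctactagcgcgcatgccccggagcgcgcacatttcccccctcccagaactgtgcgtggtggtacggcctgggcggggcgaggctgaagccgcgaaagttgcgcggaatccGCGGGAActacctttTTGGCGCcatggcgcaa

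Replication factor C, the pentamer that opens the Pcna clamp and places it on DNA, split between its subunits. Rfc2 had 19.4 to 25.9 CPM (median 22.2) in C26 livers, against 12.8 to 16.4 CPM (median 15.1) in CT livers, with no overlap. It rose by 0.59 ± 0.08 on the log2 scale, with an edgeR adjusted p of 3.01e-07. Rfc1, the large subunit, had 19.1 to 23.5 CPM (median 20.4) in C26 livers, against 24.1 to 31.4 CPM (median 26.8) in CT livers, again without overlap. It fell by 0.37 ± 0.07 on the log2 scale, with an edgeR adjusted p of 3.67e-05. Rfc3 and Rfc5 fell as well, with log2 fold changes of -0.55 and -0.58, and Rfc4 was not called at -0.36. The 4 small subunits thus did not move together: Rfc2 was the called riser, and 2 of the other 3 fell. Rfc2 shares 15.1% of its exon bases with Lat2 on the opposite strand, which had a mean of 0.38 CPM in C26 and 0.25 CPM in CT livers. Rfc5 shares 10.7% of its exon bases with Wsb2, which was higher in C26 livers by 0.44 on the log2 scale, and Rfc4 shares 12.7% with Eif4a2, which was lower by 0.67.

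The remaining replication proteins were lower or uncalled. Rpa1, the large subunit of the complex that coats single-stranded DNA, lay at 17.6 to 28.1 CPM (median 22) in C26 livers and at 27.7 to 35.8 CPM (median 31.7) in CT livers. The groups overlapped slightly, and the log2 fold change was -0.54 ± 0.09, with an edgeR adjusted p of 2.78e-05. Pcna, the sliding clamp, fell by 0.35 ± 0.09 on the log2 scale, and Lig1, the ligase that joins Okazaki fragments, fell by 0.52 ± 0.20. The call of Lig1, with an edgeR adjusted p of 0.03, was lost when any of C26 03, C26 04, C26 08, CT 06, CT 07 or CT 08 was left out, where the adjusted p reached 0.08. Rpa2, the partner of Rpa1, Pola1 and Prim1, catalytic subunits of polymerase alpha and primase, and Pold1, that of polymerase delta, were not called, with log2 fold changes between -0.25 and 0.17. Fen1, which trims Okazaki flaps, had 0 to 13 counts per library, and 78.8% of its exon bases lie under an antisense gene, Gm10143. In all, 4 of the 19 tested genes of the replication machinery were higher (Mcm2, Mcm3, Mcm4 and Rfc2), 7 were lower (Cdt1, Pcna, Lig1, Rfc1, Rfc3, Rfc5 and Rpa1) and 8 were not called, with a median of -0.08. These shares of 21.1% and 36.8% stand beside 28.9% and 29.2% of all tested genes.

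No gene of nucleotide supply and S phase chromatin was higher in C26 livers. Of the 7 genes of this class, 4 were lower (57.1%, beside 29.2% of all tested genes), and the summed level was 22.3 to 33.9 CPM (median 27.5) in C26 libraries, against 58.2 to 73.0 CPM (median 69.3) in CT libraries. In CT livers most of that sum was Tk1, the cytosolic thymidine kinase that salvages thymidine. Tk1 had 5.78 to 14.5 CPM (median 8.37) in C26 livers, against 34.1 to 47.7 CPM (median 43.1) in CT livers, and the groups were far apart. The log2 fold change was -2.20 ± 0.20, with an edgeR adjusted p of 9.97e-10, and it stayed between -2.33 and -2.12 over all alternatives and left-out libraries.

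Dut, the dUTPase that keeps uracil out of DNA, had 2.47 to 4.78 CPM (median 3.62) in C26 livers, against 5.80 to 7.47 CPM (median 6.91) in CT livers, without overlap. It fell by 0.88 ± 0.13 on the log2 scale, with an edgeR adjusted p of 3.14e-06. Tyms, thymidylate synthase, lay at 2.21 to 4.21 CPM (median 3.31) in C26 livers and at 3.47 to 6.48 CPM (median 4.56) in CT livers, with overlap. Its log2 fold change was -0.50 ± 0.15, with an edgeR adjusted p of 0.005. Rrm1, the large subunit of ribonucleotide reductase, had 6.90 to 11 CPM (median 8.73) in C26 livers, against 9.38 to 11.3 CPM (median 10.6) in CT livers. Its fall of 0.26 ± 0.09 on the log2 scale had an edgeR adjusted p of 0.015, which became 0.059 under upper-quartile scaling and 0.11 with the trend on transcript length and GC content removed. Rrm2, the S phase subunit of the same enzyme, was not called at -0.42, and neither were Uhrf1, which binds hemimethylated DNA behind the fork, at 0.31 and Hells, a chromatin remodeller, at -0.45.

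Tk1 runs head to head with Afmid, a kynurenine formamidase gene on the opposite strand, and the exons of the pair overlap by 83 bases, 1.6% of those of Tk1. Afmid averaged 9.43 ± 1.78 CPM in C26 and 33.2 ± 2.82 CPM in CT livers (SD, n = 8 and 6), a log2 fold change of -1.82 with an edgeR adjusted p of 1.12e-11. Both genes of the pair were thus lower in C26 livers by similar amounts, and the part of the neighbour in the Tk1 result was not tested.

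Among the G1 and S regulators, 1 gene was higher (12.5%, beside 28.9% of all tested genes), 3 were lower (37.5%, beside 29.2%) and 4 were not called. Ccnd1, cyclin D1, had 0.92 to 4.57 CPM (median 2.93) in C26 livers, against 3.91 to 7.98 CPM (median 4.91) in CT livers, with a small overlap. It fell by 0.91 ± 0.24 on the log2 scale, with an edgeR adjusted p of 0.0023. The other D cyclins were not called, with log2 fold changes of -0.02 (95% interval -0.27 to 0.24) for Ccnd2 and -0.05 (-0.21 to 0.11) for Ccnd3. Ccnd1 shares 23.4% of its exon bases with LTO1 on the opposite strand, which was lower by 0.58 on the log2 scale.

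The E cyclins, which partner Cdk2 at the entry into S phase, went opposite ways. Ccne1 had 4.25 to 6.63 CPM (median 5.13) in C26 livers, against 3.39 to 4.76 CPM (median 4.16) in CT livers, a rise of 0.34 ± 0.12 on the log2 scale with an edgeR adjusted p of 0.019. Ccne2 had 0.87 to 2.72 CPM (median 1.55) in C26 livers, against 1.75 to 3.31 CPM (median 2.66) in CT livers, a log2 fold change of -0.65 ± 0.23 with an edgeR adjusted p of 0.018. The groups overlapped for both. The Ccne1 call was lost without CT 01 (adjusted p = 0.055), and neither call held once the trend on transcript length and GC content was taken out. Ints8, which shares 17.4% of the exon bases of Ccne2, was lower by 0.45 on the log2 scale.

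Cdk2 itself had 9.10 to 11.9 CPM (median 10.4) in C26 livers, against 11.6 to 15.0 CPM (median 13.8) in CT livers, and fell by 0.37 ± 0.09 on the log2 scale, with an edgeR adjusted p of 0.0012. Cdk4, the partner of the D cyclins, had 27.1 to 41.4 CPM (median 31.6) in C26 livers, against 23.6 to 35 CPM (median 28.5) in CT livers, and was not called at 0.17 ± 0.08 (edgeR adjusted p = 0.079). E2f1, an activator of S phase genes, was not called at -0.56 (edgeR adjusted p = 0.056), and was called lower in some alternatives, with DESeq2 and limma among them (smallest adjusted p 0.0084).

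Genes of G2 and mitosis were scarce in CT livers and were the class most often above 0 in C26 livers. Of 11, 4 were higher in C26 livers (Top2a, Ccnb1, Aurka and Ccna2), none was lower, and the median log2 fold change was 0.76. Cdk1 alone lay below 0, at -0.48 and not called, although it is the kinase that the A and B cyclins activate. The summed level of the class was 11.3 to 25.9 CPM (median 15.0) in C26 libraries, against 7.19 to 11.3 CPM (median 10.2) in CT libraries. The share of 4 in 11 (36.4%) stands beside 28.9% of all tested genes, and the 0 lower beside 29.2%.

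Top2a, topoisomerase II alpha, which untangles sister chromatids, had 1.10 to 4.01 CPM (median 2.34) in C26 livers, against 0.31 to 1.2 CPM (median 0.79) in CT livers. Only the lowest C26 library lay within the CT range. The log2 fold change was 1.69 ± 0.42, with an edgeR adjusted p of 0.0014, and it was called under every alternative. Aurka, the kinase of the spindle poles, had 2.61 to 4.72 CPM (median 3.09) in C26 livers, against 1.63 to 2.98 CPM (median 2.44) in CT livers, and rose by 0.51 ± 0.17 on the log2 scale with an edgeR adjusted p of 0.011. Ccna2, cyclin A2, had 0.42 to 2.45 CPM (median 1.17) in C26 livers, against 0.38 to 1.14 CPM (median 0.66) in CT livers, a log2 fold change of 0.84 ± 0.35. Its edgeR adjusted p of 0.041 did not hold when any of C26 02, 03, 04 or 05 or CT 01, 05, 06 or 08 was left out, nor with limma's quality weights, where the adjusted p was 0.17. Exosc9, which shares 12.5% of the exon bases of Ccna2, was higher by 0.27 on the log2 scale.

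Ccnb1, cyclin B1, rested on few reads: 97 counts over 8 C26 libraries, against 14 counts over 6 CT libraries, 1 of which had none. That was 0.08 to 1.55 CPM (median 0.44) in C26 livers, against 0 to 0.21 CPM (median 0.10) in CT livers, and the groups overlapped. The log2 fold change was 2.44 ± 0.68, with an edgeR adjusted p of 0.0035. Since 0 of 6 CT libraries reached the level of the filter, 0.42 CPM, which 4 of 8 C26 and 2 of 8 C26-TDCA libraries did, Ccnb1 entered the test only through the tumour groups. It fell below the filter, and so was not tested, in 7 of 24 alternatives. Ccnb2 and Bub1b each reached that level in only 1 of 6 CT libraries, beside 4 of 8 C26 libraries. The counts over mitotic genes that passed the filter thus lean in part on the groups where such genes were higher. Plk1 reached that level in 2 of 6 CT, 3 of 8 C26 and 1 of 8 C26-TDCA libraries. Mki67, the gene of the Ki-67 proliferation antigen, was not called at 0.81 ± 0.42 (edgeR adjusted p = 0.099), nor was Ccnb2 at 1.2 ± 0.59 (0.085). Cdc20, Plk1, Birc5 and Bub1b had log2 fold changes of 0.35 to 0.76 and were not called.

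The number of mitotic calls in C26 against CT livers depended on single libraries. In that comparison Top2a and Aurka were called in every alternative, and Ccnb1 in every alternative that tested it. Without C26 02, C26 03 or C26 04, or without both C26-TDCA 03 and C26 02, 2 mitotic genes instead of 4 were called, since Ccna2 then missed the threshold and Ccnb1 fell under the filter. Top2a (1.59) and Aurka (0.43) were still called without C26 02.

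Several lists of non-parenchymal markers were higher in the same comparison, in which 28.9% of all tested genes were higher and 29.2% lower. Of the Kupffer cell list, 12 of 12 tested genes were higher in C26 against CT livers, with a summed level of 598 to 787 CPM in C26-TDCA, 493 to 757 CPM in C26 and 302 to 350 CPM in CT libraries. Monocyte and neutrophil markers were higher in 10 of 11, summing to 28.0 to 55.5 CPM in C26-TDCA, 30.1 to 68.6 CPM in C26 and 6.14 to 11.1 CPM in CT libraries. Sinusoidal endothelial markers were higher in 11 of 12 (606 to 779, 431 to 756 and 318 to 388 CPM in C26-TDCA, C26 and CT), and stellate cell markers were higher in 9 and lower in 1 of 12 (446 to 625, 359 to 563 and 224 to 301 CPM). Of 9 myeloid progenitor genes, 2 were in the table, Elane and Prtn3, of which only Prtn3 was tested and was higher, summing to 22.7 to 52.2 CPM in C26-TDCA, 31.4 to 58.5 CPM in C26 and 0 to 0.24 CPM in CT libraries, while Mpo, Ctsg, Ms4a3, Cebpe, Camp, Ngp and Ltf were not analysed here. Megakaryocyte markers were higher in 3 of 3 tested genes and cholangiocyte markers in 3 of 8. Hepatocyte markers were higher in 4 and lower in 4 of 11, erythroid markers higher in 3 and lower in 3 of 6, and B and plasma cell markers higher in 1 and lower in 1 of 9. T and NK cell markers were lower in 2 of 5, and intestinal epithelium markers were lower in 1 of 2, with Cdx1, Cdx2, Vil1, Cdh17, Krt20 and Muc2 not analysed here. C26 02, the C26 library with the highest mitotic sum, had the lowest sums of its group for Kupffer cells (493 CPM), sinusoidal endothelium (431 CPM), stellate cells (359 CPM) and megakaryocytes (12.4 CPM). Its hepatocyte sum was also the lowest of the group (40381 CPM), and its myeloid progenitor sum was the highest (58.5 CPM). The part of these cells in the mitotic result was not tested.

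**Figure D2:**
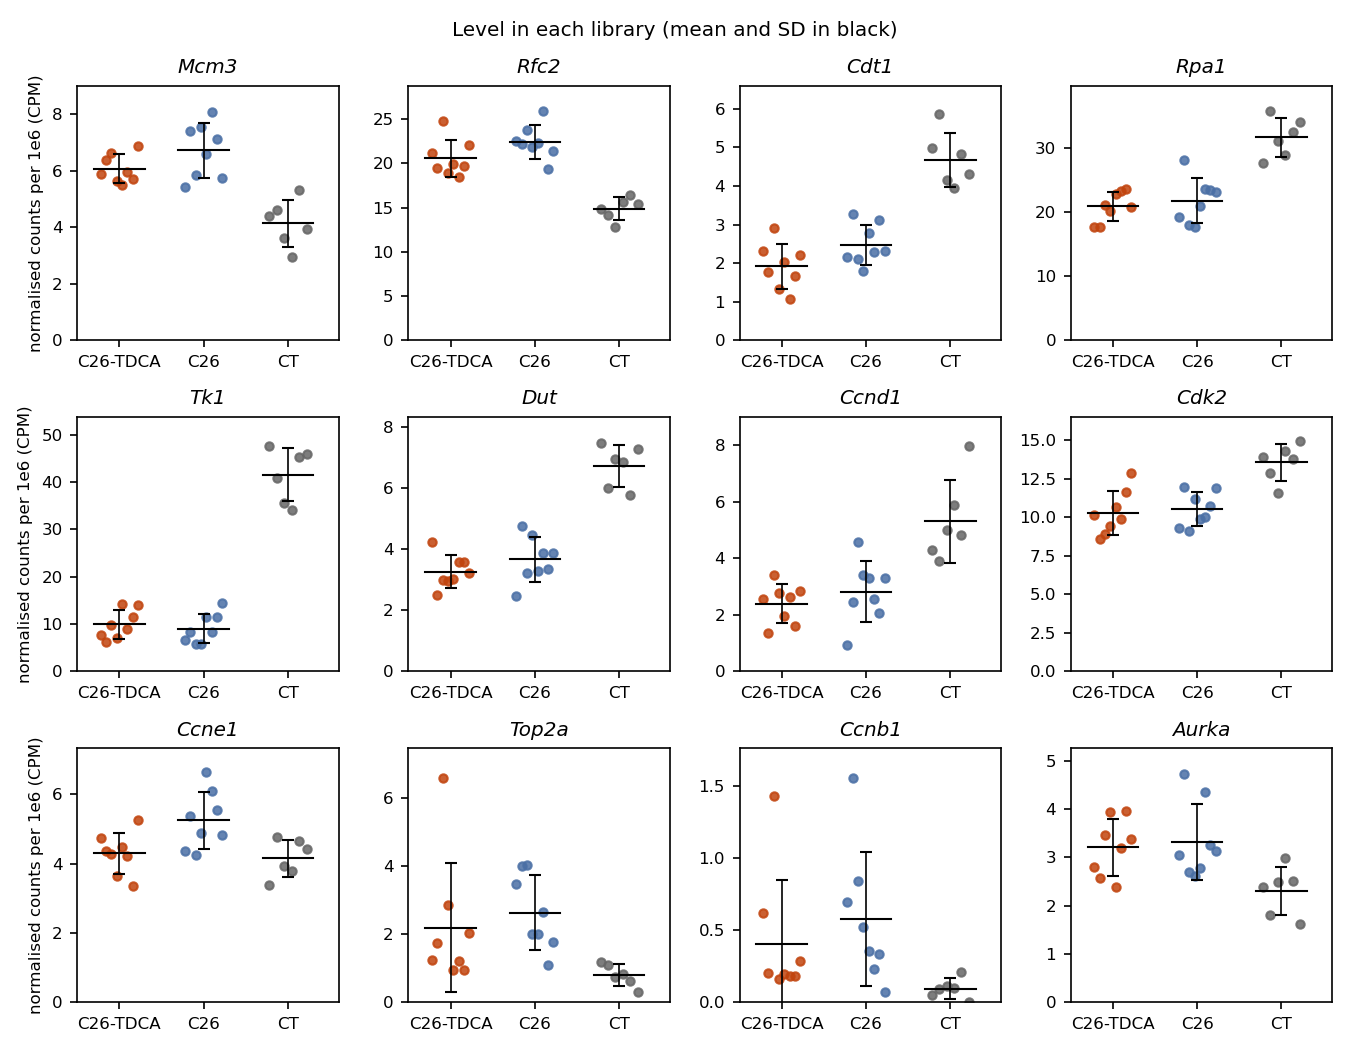
Level in CPM (y axis, from 0) of 12 members in each library, by group from left to right C26-TDCA, C26 and CT, with the mean and SD in black. Mcm3 and Rfc2 lie higher, and Cdt1, Tk1 and Dut lower, in every C26 library than in every CT library, while Top2a and Ccnb1 are spread widely among the tumour bearers.

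The promoters of Top2a and Aurka are printed because both genes rose and both windows hold the CHR letters that mark many mitotic promoters, next to CCAAT boxes. These letters were also in the windows of 6 uncalled members (Bub1b, Ccnb2, Cdc20, Cdk1, Mki67 and Plk1). They were absent from the window of Ccnb1, which was called higher. Capitals mark CHR (TTTGAA) and CCAAT letters on either strand, in RefSeq windows on GRCm38.p6. The Top2a window is chr11:99024140-99024439, minus strand, with 2 CHR matches, 179 and 23 bases before the start, and 6 CCAAT boxes. The Aurka window is chr2:172370521-172370820, minus strand, with 1 CHR match, 32 bases after the start, and 2 CCAAT boxes, 51 and 19 bases before it.
Top2a: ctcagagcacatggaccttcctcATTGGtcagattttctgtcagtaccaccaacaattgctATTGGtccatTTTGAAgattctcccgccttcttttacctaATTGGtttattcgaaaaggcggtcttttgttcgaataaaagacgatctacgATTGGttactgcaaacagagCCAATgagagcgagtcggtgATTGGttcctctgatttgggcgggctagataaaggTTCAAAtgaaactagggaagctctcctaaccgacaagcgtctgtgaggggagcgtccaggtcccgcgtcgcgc
Aurka: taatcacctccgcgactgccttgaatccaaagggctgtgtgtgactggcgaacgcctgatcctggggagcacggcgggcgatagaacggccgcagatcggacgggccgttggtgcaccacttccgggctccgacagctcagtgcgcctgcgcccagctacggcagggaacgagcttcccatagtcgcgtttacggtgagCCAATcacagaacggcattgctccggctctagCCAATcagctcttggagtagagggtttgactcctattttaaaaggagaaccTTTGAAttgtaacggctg

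No member passed the test for daily TDCA. In C26-TDCA against C26 livers, edgeR called 0 of 45 members higher and 0 lower, with 7 (15.6%) at an unadjusted p under 0.05, as were 15.8% of all tested genes, while 1.73% of all tested genes were called higher and 0.237% lower. DESeq2 gave an adjusted p to 32 members and also called 0. The smallest edgeR adjusted p was 0.14. Of the 45 fold changes, 34 lay below 0, with a median of -0.13 beside -0.01 for all tested genes. The 95% interval lay within 0.5 of 0 on the log2 scale for 18 members and within 1 for 40. For genes of G2 and mitosis the intervals reached from -1.73 to 1.18, so the data do not show that these genes were alike in both groups.

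The 7 members whose interval left out 0 were Mcm7, Cdt1, Pola1, Pold1, Prim1, Ccnd2 and Ccne1, a share near the background just given and so no result about these genes. Ccnd2, cyclin D2, had 7.42 to 11.4 CPM (median 9.98) in C26-TDCA livers, against 5.86 to 9.89 CPM (median 7.29) in C26 livers, a log2 fold change of 0.34 ± 0.12 with an edgeR adjusted p of 0.14. Pola1, the catalytic subunit of DNA polymerase alpha, had 3.47 to 5.57 CPM (median 3.90) in C26-TDCA livers, against 2.45 to 3.94 CPM (median 3.12) in C26 livers, or 0.34 ± 0.13 (adjusted p = 0.16, edgeR). Prim1, its primase partner, lay on the other side of 0, with 2.34 to 4.49 CPM (median 2.96) in C26-TDCA livers, against 2.89 to 4.91 CPM (median 3.89) in C26 livers, or -0.37 ± 0.14 (adjusted p = 0.16, edgeR). The groups overlapped for each of these genes, as they did for all 45 members in this comparison, where 0.0947% of all tested genes were higher and 0.0541% lower without overlap.

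Tk1 had 6.25 to 14.3 CPM (median 9.40) in C26-TDCA livers, beside its median of 8.37 CPM in C26 livers, a log2 fold change of 0.13 (95% interval -0.24 to 0.51). Rrm2 had 0.32 to 1.54 CPM (median 0.94) in C26-TDCA livers, against 0.52 to 2.99 CPM (median 1.04) in C26 livers, with a log2 fold change of -0.38 (95% interval -1.0 to 0.25). Uhrf1 had 0.28 to 1.30 CPM (median 0.79) in C26-TDCA livers, against 0.23 to 1.21 CPM (median 0.64) in C26 livers. Cdk4 had 26.5 to 32.0 CPM (median 30.0) in C26-TDCA livers, with a log2 fold change of -0.11 (-0.26 to 0.04). Plk1, polo-like kinase, had 0.04 to 1.12 CPM (median 0.17) in C26-TDCA livers, against 0.26 to 0.79 CPM (median 0.41) in C26 livers, or -0.74 ± 0.51. Ccnb2, cyclin B2, had 0.09 to 1.17 CPM (median 0.19) in C26-TDCA livers, against 0.26 to 1.49 CPM (median 0.53) in C26 livers, or -0.70 ± 0.52. Neither was called, and no library had more than 22 counts of Plk1 or 32 counts of Ccnb2.

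**Figure D3:**
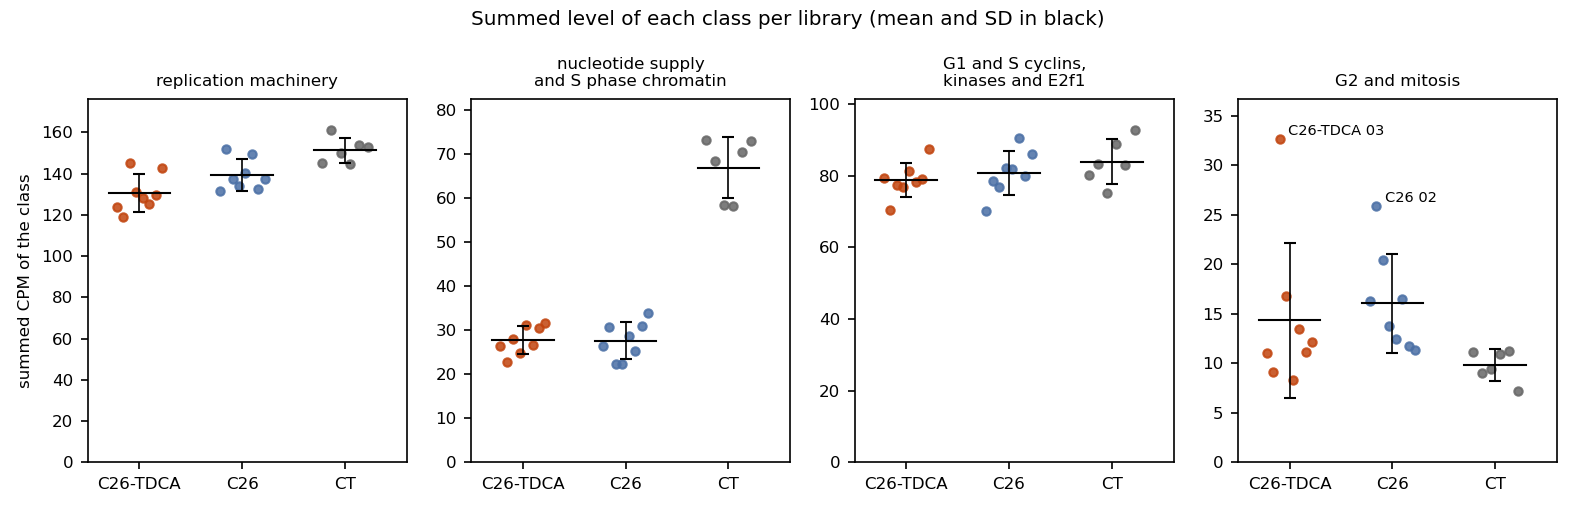
Summed CPM of each class (y axes, from 0) in each library, by group from left to right C26-TDCA, C26 and CT, with the mean and SD in black. The nucleotide supply sum lies at 22.3 to 33.9 CPM in every tumour-bearing liver, below all 6 CT livers, and the mitotic sum is highest in C26-TDCA 03 (32.7 CPM) and C26 02 (25.9 CPM).

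One C26-TDCA mouse stood apart in the mitotic genes. C26-TDCA 03 had the highest level of its group in 10 of 11 of them and a summed level of 32.7 CPM, while the other 7 C26-TDCA livers averaged 11.7 ± 2.84 CPM (SD) with a maximum of 16.8 CPM. Its mitotic genes lay at 1.06 to 7.21 times their group medians, with a median of 4.18 times. Mki67 was at 8.58 CPM in this liver, beside a group median of 2.05 CPM, and Top2a was at 6.59 CPM, beside 1.49 CPM. Other mitotic genes outside the list were also highest there, with a sum of 102 CPM in a group range of 71.2 to 102 CPM. Its sum for the replication machinery was the highest of the group too, at 145 CPM beside a median of 129 CPM. Its sums for nucleotide supply (27.9 CPM) and for the G1 and S regulators (77.4 CPM) lay within those of the group. The library was the shallowest of its group at 20521443 counts. Among markers, its megakaryocyte sum was the highest of the group (24.0 CPM, group median 18.2 CPM), while its Kupffer cell sum (714 CPM, group median 702 CPM), its myeloid progenitor sum (41.2 CPM, median 38.1 CPM) and its erythroid sum (93.4 CPM, median 127 CPM) were not. The part of depth or of these cells in this library was not tested.

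C26-TDCA 03 was singled out after its values were seen, and C26 02, the C26 library with the highest mitotic sum, was kept. Leaving out the highest library of the treated group alone lowers these fold changes by itself, so the run cannot show an effect of TDCA. All 9 mitotic genes that passed the filter then lay below 0 in C26-TDCA against C26 livers. Their median log2 fold change was -0.43, beside -0.13 for the same genes with C26-TDCA 03 included, and 0 were called (smallest edgeR adjusted p 0.23). In the C26 group, C26 02 was highest in 6 of 11 mitotic genes and C26 03 in 4. Without C26 02, the other 7 C26 livers averaged 14.7 ± 3.29 CPM for the class. C26 02 was also the shallowest library of its group, at 17512071 counts, and the part of depth was not tested. The mitotic class also had the largest spread between mice, with a median coefficient of variation of 86.3% in C26-TDCA, 46.2% in C26 and 39.6% in CT livers. Without C26-TDCA 03 that of C26-TDCA livers was 49.3%. The replication machinery had 15.9% in C26-TDCA, 16.8% in C26 and 15.0% in CT livers. Counting error is larger for these scarce genes, with median counts of 5 per library for Ccnb1 and 51.5 for Mki67.

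**Figure D4:**
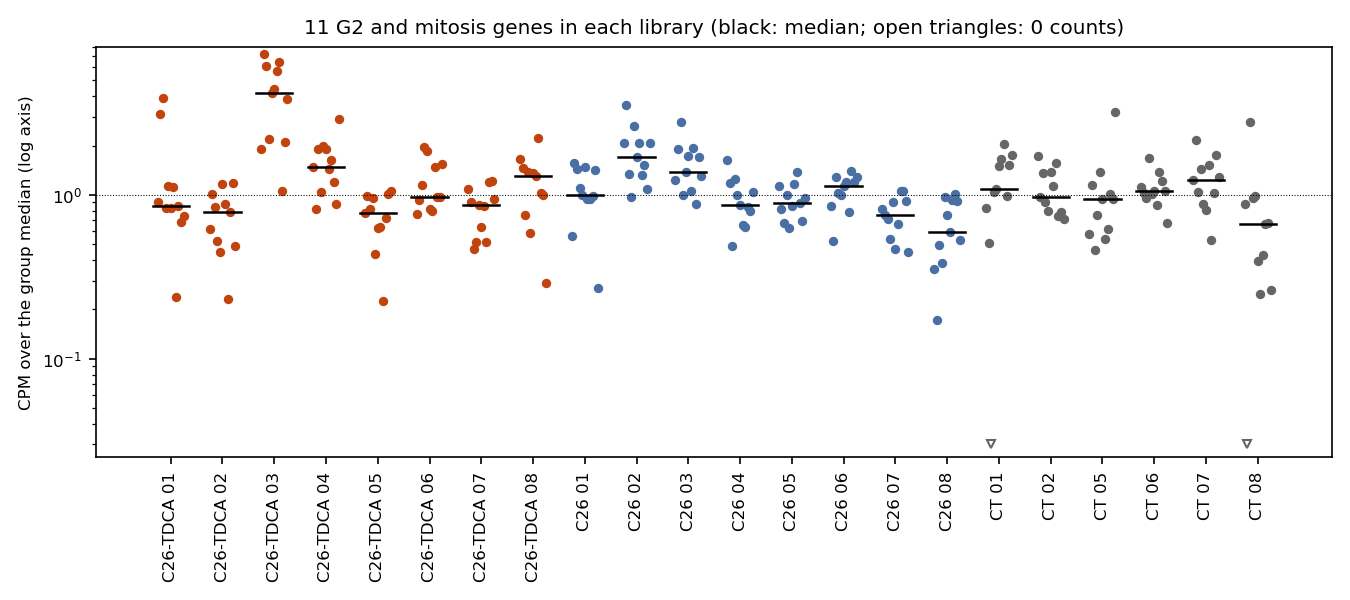
Level of each of the 11 G2 and mitosis genes over its group median (y axis, log scale) in each library, by group from left to right C26-TDCA, C26 and CT; black lines are medians over the 11 genes and open triangles are genes with 0 counts. The median of C26-TDCA 03 is 4.18, while those of the other 21 libraries lie between 0.59 and 1.71.

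Compared with CT livers, C26-TDCA livers had 9 members higher and 17 lower, where 28.7% of all tested genes were higher and 28.2% were lower by edgeR. This comparison shares the CT libraries with that of C26 livers, so the values are given side by side. Tk1 had a log2 fold change of -2.06 in C26-TDCA and -2.20 in C26 livers against CT, Dut of -1.04 and -0.88, and Cdt1 of -1.29 and -0.92. Ccnd1 was at -1.15 and -0.91, Rfc2 at 0.47 and 0.59, Mcm3 at 0.56 and 0.70, and Top2a at 1.41 and 1.69. All 5 enzymes of nucleotide supply were lower in C26-TDCA than in CT livers, including Rrm2 at -0.80 (edgeR adjusted p = 0.045). Ccna2 was not called there, at 0.56 (edgeR adjusted p = 0.18), and Mcm5 (0.58) and Ccnd2 (0.32) were called higher. In C26-TDCA against CT livers, the calls of Rrm1, Rrm2, Mcm5, Ccnd2, E2f1 and Aurka were lost when some single library was left out. With the label number fitted as a block, the calls of Rrm1, Rrm2, Mcm5, Ccnd2, E2f1 and Ccnb1 were lost.

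Per kilobase of the longest annotated transcript of each gene, which need not be the one expressed, the list was led by a few genes. In C26-TDCA livers Cdk4 (14.5 CPM per kb), Pcna (8.84) and Ccnd3 (5.03) were the most abundant, and in C26 livers the same 3 led at 15.7, 9.17 and 4.99. In CT livers Tk1 led at 16.7 CPM per kb, ahead of Cdk4 (13.9) and Pcna (11.7). Tk1 stood in place 7 in C26-TDCA and in place 8 in C26 livers, at 4 and 3.64 CPM per kb. At the low end, Ccnb1 was at 0.16, 0.23 and 0.04 CPM per kb in C26-TDCA, C26 and CT livers, and Bub1b at 0.13, 0.12 and 0.07. Cdk4 shares 19.7% of its exon bases with Tspan31, whose mean level was 129 CPM in C26-TDCA, 139 CPM in C26 and 105 CPM in CT livers, so its level is uncertain, since reads of overlapping genes cannot be told apart without a stated strand setting. In all, 18 members share exon bases with another gene, 16 of them with one on the opposite strand, and for 8 the share is over 10%.

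Promoter letters differed between the classes. Of the 47 members, 41 had a RefSeq promoter window of 300 bases, and 23 of these (56.1%) held an E2F-like match on either strand, beside 10.9% of the 27025 genes with a window and 18.3% of the 10752 tested ones. Of the replication machinery, 15 of 19 held one, of nucleotide supply and S phase chromatin 4 of 7 (Tk1, Tyms and Dut not among them), of the G1 and S regulators 1 of 5 and of G2 and mitosis 3 of 10. The CHR letters were in 8 of 10 G2 and mitosis genes and in 2 of 19 of the replication machinery, beside 20.2% of all genes and 14.8% of the tested ones. CCAAT boxes were in 26 of 41 members (63.4%) and in 9 of 10 of G2 and mitosis, beside 41.1% of all genes. Of 47 E2F-like matches in member windows, 6 overlapped a CCAAT box, and for 3 members every E2F-like match did so.

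Within the list, E2F-like letters occurred among members of every direction. An E2F-like match was in 2 of the 6 members higher in C26 livers that have a window, in 6 of the 12 lower ones and in 13 of the 21 uncalled ones. Mcm3 and Cdt1, printed above, both hold one and moved in opposite directions. CHR was in 3 of the 6 higher members, in 0 of the 12 lower ones and in 6 of the 21 uncalled ones. Matches are letters in a window, not measured binding.

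Other genes of the same pathways were called in both directions, as all tested genes were (28.9% higher and 29.2% lower). Of 35 other replication genes tested, 6 were higher (17.1%) and 13 lower (37.1%) in C26 against CT livers. Timeless, a component of the fork protection complex, had 10.3 to 16.1 CPM (median 12.9) in C26 and 4.04 to 7.08 CPM (median 6.15) in CT livers, a log2 fold change of 1.16 ± 0.13. Gmnn, geminin, which inhibits Cdt1, had 2.08 to 4.26 CPM (median 3.16) in C26 and 6.48 to 9.24 CPM (median 8.42) in CT livers, or -1.45 ± 0.16. Rpa3, the small subunit of replication protein A, fell by 1.09 ± 0.12 on the log2 scale. The edgeR adjusted p was at most 2.57e-08 for each of these 3 genes, and their groups did not overlap.

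Of 34 other mitotic genes tested, 8 were higher (23.5%) and 4 lower (11.8%) in C26 livers, both below the shares of all tested genes. Incenp, a subunit of the chromosomal passenger complex, rose by 0.87 ± 0.23 on the log2 scale. Pttg1, securin, had 0.08 to 1.51 CPM in C26 and 1.84 to 2.71 CPM in CT livers and fell by 1.53 ± 0.31, and Cenpa, the centromeric histone, fell by 0.84 ± 0.16. The edgeR adjusted p of these 3 genes was at most 0.0023. Pttg1 and Cenpa are themselves genes of mitosis, and both moved against Top2a and Ccnb1.

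Among inhibitors, pocket proteins and checkpoint kinases, 2 of 13 tested genes were higher (15.4%) and 7 lower (53.8%) in C26 livers, beside 28.9% and 29.2% of all tested genes. Wee1, the kinase that holds Cdk1 inactive, had 0.28 to 4.34 CPM (median 2.02) in C26 and 22 to 27.3 CPM (median 26.8) in CT livers. Its log2 fold change was -3.55 ± 0.41, with an edgeR adjusted p of 8.03e-08. Rbl2, the pocket protein p130 of quiescent cells, had 16.0 to 24.2 CPM in C26 and 37.0 to 46.4 CPM in CT livers and fell by 1.06 ± 0.09. Cdkn1a, which encodes the inhibitor p21, was one of the 2 higher genes, with 4.26 to 38.3 CPM (median 7.08) in C26 and 0.30 to 1.19 CPM (median 0.68) in CT livers and a log2 fold change of 4.38 ± 0.68; it lies outside the rule for named genes and was chosen after its values were seen. Of 18 other E2F and DP factors and G1 kinases, 3 were higher (16.7%) and 6 lower (33.3%), among them Tfdp2 (-0.91), Cdk6 (-0.71) and Lin9 (-1.21).

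In C26-TDCA against C26 livers, 1 of the 100 tested genes of these 4 lists was called, a share near those of all tested genes (1.73% higher and 0.237% lower). Atm, the kinase that signals double-strand breaks, had 4.28 to 9.40 CPM (median 7.01) in C26-TDCA and 2.02 to 6.20 CPM (median 4.32) in C26 livers, with overlapping groups. The log2 fold change was 0.78 ± 0.18, with an edgeR adjusted p of 0.027. Whether this Atm call held under the alternatives was not tested. Over all tested genes, 256 were called higher in this comparison in the main fit. That number ran from 9, once the trend on length and GC was taken out, to 527, without C26 01. In CT livers Atm had 8.76 to 13.0 CPM, so that C26 livers were lower than CT by 1.35 ± 0.19 on the log2 scale. Atr (0.41), Rb1 (0.30), Tfdp2 (0.33), Lin9 (0.45), Lin54 (0.29) and Dbf4 (0.39) lay above 0, and Chaf1b (-0.74), Rnaseh2a (-0.31), Cks1b (-0.31), Ube2c (-0.87) and Ccnf (-0.28) lay below 0, none of them called.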

How the data were processed

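Liver polyA RNA of 22 mice was sequenced, 1 library per mouse, in 3 groups taken from the labels. The values are raw gene counts deposited by the authors. Per the submitters' processing notes, reads were handled on GRCm38 with HISAT2 2.2.1 and featureCounts 2.0.3, and bcl2fastq 2.17, Trimmomatic 0.40, FastQC and DESeq2 1.42.0 are also named. The strand setting and the rule for multi-mapped reads were not given in the sources used here. Of 15448 identifiers, 15438 matched a GENCODE M21 symbol.

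Counts were fitted here with edgeR 4.0.16 (R 4.3.3), TMM scaling and the quasi-likelihood test on all 22 libraries. filterByExpr (minimum count 10) removed 663 genes and left 14785, over which p-values were adjusted by the Benjamini-Hochberg method, with 0.05 as threshold. Fits were tested on simulated data. Intervals are 95% and approximate. limma 3.58.1, DESeq2 1.42.0, other scalings, filters, a replicate block, a length and GC trend and left-out libraries were alternatives, and leaving out C26-TDCA 03 and C26 02 together was chosen after seeing the data.

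Members and lists were chosen with earlier results of these data known. Any member may be named. Values were printed for up to 6 members per class by smallest p, and up to 3 genes per comparison in each other pathway list. Levels of Cdt1 and Mki67 were added after they were seen. A depth of 3 counts corresponds to 0.10 to 0.18 CPM.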

Additional observations from a re-analysis of the deposited data

Results flagged for a closer look

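A sample stood far from the others of its group, by Dixon's criterion, in 18 of 150 groups of values examined (12%), where chance flags about 1 in 20 groups. The groups are not independent, since the same libraries recur and a flagged sum contains flagged genes, so setting these rates side by side is no test. Of the flags, 11 belong to C26-TDCA 03. Its level was 13.6 CPM for Mcm7 (next highest 11 CPM), 2.76 CPM for Lig1 (1.73 CPM), 5.57 CPM for Pola1 (4.04 CPM) and 4.49 CPM for Prim1 (3.04 CPM). In mitotic genes its level was 1.43 CPM for Ccnb1 (next highest 0.62 CPM), 8.58 CPM for Mki67 (4.10 CPM), 6.59 CPM for Top2a (2.84 CPM) and 2.09 CPM for Cdc20 (0.53 CPM). It was 1.12 CPM for Plk1 (next highest 0.39 CPM), 3.68 CPM for Birc5 (2.11 CPM) and 32.7 CPM for the sum of G2 and mitosis genes (16.8 CPM).

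C26 02 stood above its group at 2.99 CPM for Rrm2 (next highest 1.33 CPM), 6.51 CPM for Mki67 (3.41 CPM) and 1.19 CPM for Cdc20 (0.69 CPM). The other libraries set apart were C26 06 with 2.84 CPM of Lig1 (2.04 CPM), C26 03 with 1.49 CPM of Ccnb2 (0.77 CPM), CT 07 with 6.10 CPM of Rfc3 (4.78 CPM) and CT 05 with 4.86 CPM of Rpa2 (4.22 CPM).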

How the results depend on the processing

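Of the 23 members called in C26 against CT livers, 18 kept their call in every alternative that tested them, and Lig1, Rrm1, Ccne1, Ccne2 and Ccna2 lost it in at least 1. Of the 22 uncalled members, 7 gained a call in at least 1 (Mcm7, Rrm2, Ccnd3, Cdk4, E2f1, Ccnb2 and Mki67). The count of higher G1 and S regulators, 1 in the report, was 2 under upper-quartile scaling, 2 with a replicate block 0 once the trend on length and GC was taken out, and 0 to 2 with 1 library left out (2 without C26 01 or CT 06, 0 without CT 01). The count of higher mitotic genes, 4 in the report, was 2 to 4 with 1 library left out and 2 with C26-TDCA 03 and C26 02 both left out. The cause was not tested beyond the genes tested and libraries used. With 1 library left out, 7 to 10 members were higher and 13 to 16 lower in C26 against CT livers, 0 in either direction in C26-TDCA against C26 livers, and 6 to 10 higher and 14 to 18 lower in C26-TDCA against CT livers. E2F-like letters preceded by 1 more T were in 34.1% of members and 2.61% of all genes.

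In C26 against CT livers, sign changes occurred in 4 uncalled members. Pold1 was at -0.00188 with the replicate block, at -0.20 once that trend was taken out and at -0.0189 to 0.17 with 1 library left out. Ccnd2 was at 0.0523 under upper-quartile scaling, 0.00928 with only C26 and CT libraries fitted, 0.0114 with limma's quality weights and -0.0837 to 0.0327 with 1 library left out. Ccnd3 was at 0.0218 under upper-quartile scaling and 0.00343 with the replicate block, and Rpa2 at -0.13 to 0.00958 with 1 library left out. In C26-TDCA against C26 livers, 12 of 45 members, none of them called, changed sign when some single library was left out.

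Whether label numbers pair the mice cannot be told from the counts. Correlations of same-numbered deviations ran from -0.20 to 0.34 in C26-TDCA against C26 and from -0.08 to 0.05 in C26 against CT. C26-TDCA 03 (0.34) and C26-TDCA 04 (0.21) were closest to the C26 library of the same number, and the remaining C26-TDCA libraries to one of another number. With the number as a replicate block, 9 members were higher and 14 lower in C26 against CT livers, with the call of Ccna2 lost and one of Cdk4 gained. In C26-TDCA against CT livers 6 calls were lost under it (Mcm5, Rrm1, Rrm2, Ccnd2, E2f1 and Ccnb1) and 2 gained. Depth limits the mitotic genes most, since Ccnb1 had a median of 5 counts per library, and 1 library per mouse leaves variation between tissue pieces unmeasured.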

Other observations

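Mcm10, a replication initiation factor outside the list, was chosen after its values were seen. It had 24.9 to 56.4 CPM (median 39.4) in C26-TDCA, 17.7 to 51.3 CPM (median 44.8) in C26 and 93.0 to 197 CPM (median 131) in CT livers. In C26 against CT livers its log2 fold change was -1.78 ± 0.22, with an edgeR adjusted p of 2.08e-07, and the groups did not overlap. There, 5 of 6 measured subunits of the Mcm2-7 helicase had log2 fold changes of at least 0.28 and the sixth was at 0.19. Of these subunits, Mcm2, Mcm3 and Mcm4 were called higher, and Mcm5, Mcm6 and Mcm7 were not called.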
